A study of Mus musculus with 5 samples.

Results

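The genes described here encode the voltage-gated sodium channels, the voltage-gated calcium channels with their beta and gamma subunits, and the hyperpolarization-activated HCN channels. Members were taken by gene symbol: the Scn genes ending in a or b, Cacna1a to Cacna1s, Cacnb1 to Cacnb4, Cacng1 to Cacng8 and the numbered Hcn genes. This gave 40 genes among 27919 rows with a symbol: 10 sodium channel alpha genes, 4 sodium channel beta genes, 10 calcium channel alpha1 genes, 4 calcium channel beta genes, 8 gamma genes and 4 HCN genes. Their polyadenylated RNA was compared in forebrains of untreated C57BL/6 mouse embryos at E12.5, in 3 EedcKO libraries and 2 wild-type (WT) libraries described as littermates. Eed is a core protein of Polycomb repressive complex 2, which methylates histone H3 and keeps developmental genes silent. The labels say neither how Eed was deleted, nor with which driver, nor in which cells. Each library is bulk tissue, so fewer cells of a type and less RNA per cell cannot be told apart.

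Voltage-gated channels open when the membrane potential changes and so turn electrical activity into ion flow. Sodium channel alpha subunits form the pore that starts action potentials and beta subunits tune its gating. Calcium channel alpha1 subunits form pores of the L, P/Q, N, R and T types, and beta subunits bring the pore to the membrane. Most gamma genes encode TARPs, which traffic AMPA-type glutamate receptors rather than calcium channels. HCN channels open on hyperpolarization and carry a pacemaker current. In the embryonic forebrain these genes come on as neurons are born and begin to differentiate, before most synapses form.

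Counts on rows with a symbol summed to 4809259, 4855494 and 4908319 in EedcKO 1, 2 and 3, against 4922228 in WT 1 and 4723794 in the library labelled wild type 2. As a check of the tissue, the forebrain factor Lhx2 had 1341, 1370 and 1648 counts in EedcKO, against 922 and 1305 counts in WT 1 and the library labelled wild type 2. Eed itself had 251, 233 and 247 counts in EedcKO, against 404 in WT 1. The library labelled wild type 2 had 238, a count at the EedcKO level in this 1 gene, so main results are also given without it. As the labels do not say how Eed was deleted, the count that each genotype should have is not known. With both WT libraries Eed did not pass the test (log2 fold change -0.40, SE 0.22, adjusted p = 0.412 with edgeR). In Otp, picked after its values were seen, the library labelled wild type 2 lay on the side of WT 1. It had 85 counts there and WT 1 had 428, against 0, 1 and 1 in EedcKO. Whether the label is right was not tested. Where 2 WT values stand together, WT 1 comes first and the library labelled wild type 2 second. By Xist and Y-linked counts EedcKO 1 and both WT libraries came from female embryos, and EedcKO 2 and 3 from males. No WT embryo was male, so genotype is free of embryo sex only where EedcKO 1 is set against the WT.

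Of the 40 genes, 32 had enough counts to be tested, 4 were lower in EedcKO and none was higher past an adjusted p of 0.05 (edgeR quasi-likelihood test, Benjamini-Hochberg adjustment over 13989 genes). The 4 were the sodium channel genes Scn9a (chr2:66480080-66634962, mm10) and Scn3b (chr9:40269217-40291618), the T-type calcium channel gene Cacna1i (chr15:80287238-80398279) and the HCN channel gene Hcn4 (chr9:58823412-58863175). Among all tested genes 3.2% passed, 2.17% as lower and 1.04% as higher. At an unadjusted p under 0.05, 15 channel genes were lower, where the share of all tested genes was 9.51%, and 1 was higher, where it was 7.7%. DESeq2 called the same 4 genes lower and 1 higher, and limma-voom called 3 lower and none higher. All 3 EedcKO libraries lay below both WT libraries for 15 of the 32 genes and above them for 1, against 17.4% and 16.4% of all tested genes. The fitted log2 fold change (EedcKO over WT) was negative for 25 of the 32, against 48.4% of all tested genes. Its median was -0.40 for the channel genes and 0.01 for all genes tested.

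**Figure D1:**
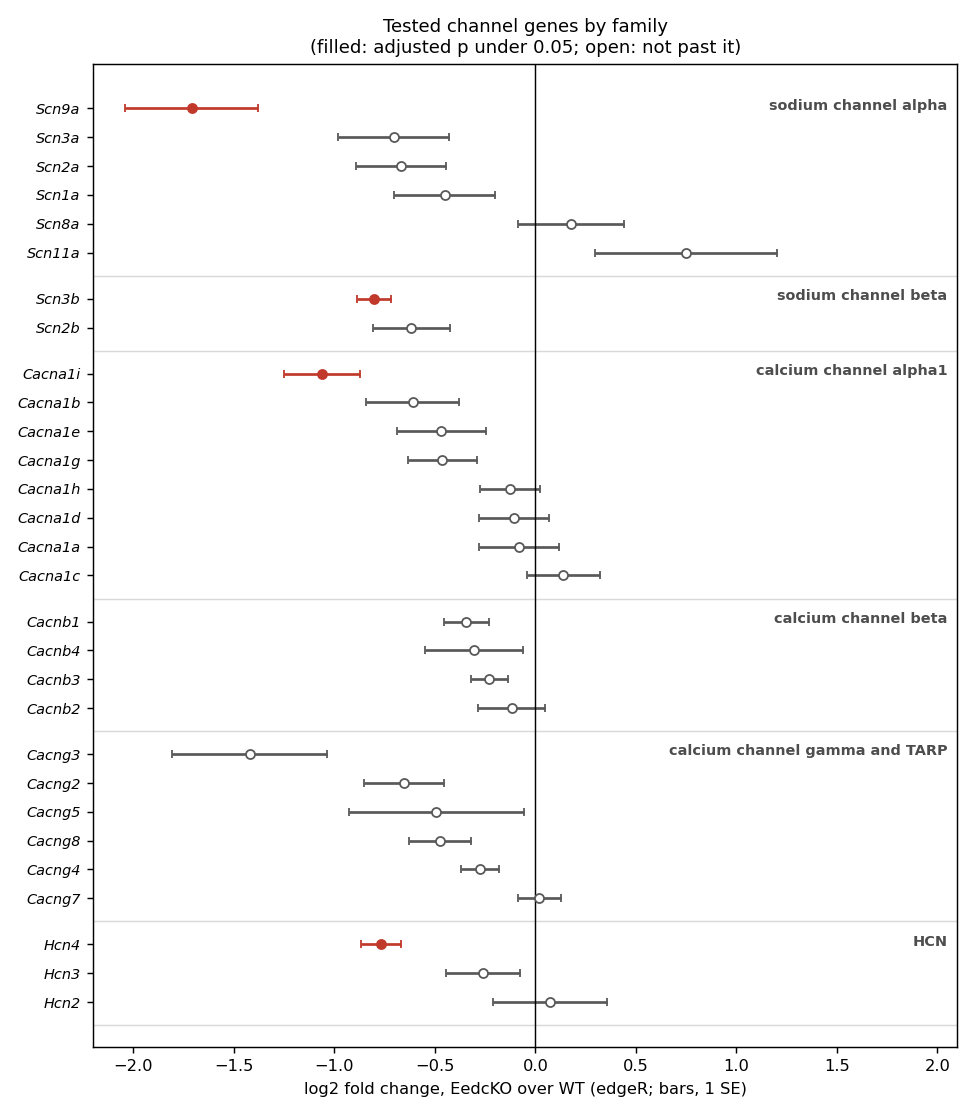
Log2 fold change (x axis, EedcKO over WT, bars 1 SE of the edgeR fit) of 29 of the 32 tested channel genes, grouped by family down the page. Filled points are the 4 genes past an adjusted p of 0.05 (Scn9a, Scn3b, Cacna1i and Hcn4), and 24 of the 29 points lie below 0.

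The calls depended on single libraries, for channel genes and for all genes alike. Without EedcKO 3 edgeR called 0 of all 13891 genes tested, so no channel gene passed. At an unadjusted p under 0.05, 10 channel genes were then lower and 1 higher, against 7.53% and 6.05% of all genes. Lower channel genes numbered 2 without EedcKO 1 and 1 without EedcKO 2, where the calls over all genes numbered 262 and 84, against 448 with every library. Without the library labelled wild type 2, 9 channel genes were lower and the calls over all genes numbered 882. Without WT 1, 4 channel genes were lower and 1 higher, and the calls over all genes numbered 1012. At an unadjusted p under 0.05 the channel genes without WT 1 were 7 lower and 4 higher, where all genes had 12.2% lower and 11.4% higher, so the larger count of lower genes rested in part on WT 1. With embryo sex as a covariate edgeR called 0 of all 13989 genes, and at an unadjusted p under 0.05, 9 channel genes were lower and none higher, against 6.3% and 5.21% of all genes. Summed over the 40 genes, the level was 1778, 1806.5 and 1732 CPM (counts relative to the TMM-scaled library total) in EedcKO, against 2444 CPM in WT 1 and 1936 CPM in the library labelled wild type 2. All 3 EedcKO sums were below both WT sums, and the WT sums differed from each other by more than the EedcKO sums did.

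**Figure D2:**
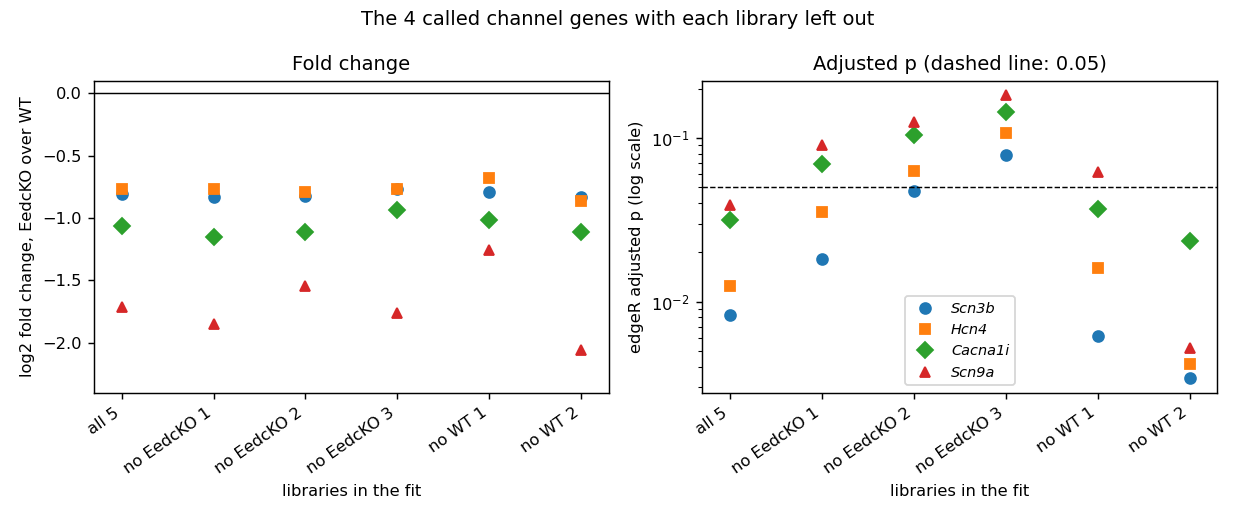
Log2 fold change (left, EedcKO over WT) and edgeR adjusted p (right, log scale, dashed line at 0.05) of the 4 called genes with all 5 libraries and with each library left out in turn. WT 2 is the library labelled wild type 2. Every fold change stays below 0, and without EedcKO 3 all 4 adjusted p-values lie above the line, between 0.0782 and 0.183.

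Of the 7 tested sodium channel alpha genes 1 fell, Scn9a, and none rose. Scn9a, known as a channel of peripheral sensory and sympathetic neurons, had 28, 18 and 26 counts in EedcKO 1, 2 and 3, against 99 in WT 1 and 58 in the library labelled wild type 2. As CPM these were 5.83, 3.72 and 5.32 in EedcKO, against 20.8 and 11.8 in the WT. The groups did not overlap, and the WT libraries differed from each other by more than the EedcKO libraries did. On that scale Scn9a averaged 4.96 ± 1.104 CPM in EedcKO (SD, n = 3) and 16.3 ± 6.40 CPM in the WT (SD, n = 2), which is -1.71 as log2 fold change (SE 0.33, adjusted p = 0.0391 with edgeR). It was -2.06 without the library labelled wild type 2 (edgeR adjusted p = 0.00518) and -1.26 without WT 1 (edgeR adjusted p = 0.0622). Leaving out EedcKO 1, 2 or 3 gave edgeR adjusted p = 0.0906, 0.124 and 0.183, and limma-voom gave an adjusted p = 0.0620. Between the female libraries alone the log2 fold change was -1.47, with 1 EedcKO library assumed to vary like the WT (edgeR adjusted p = 0.782). Markers of peripheral sensory neurons and neural crest summed to 364, 436 and 348 CPM in EedcKO, against 389.5 and 307 CPM in the WT, with 11 or 12 of 12 genes detected in each library. Those sums overlapped between the groups.

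The abundant alpha genes did not pass the test. Scn3a, an alpha subunit of the embryonic brain, had 91.9, 78.6 and 63.4 CPM in EedcKO, against 167 CPM in WT 1 and 87.6 CPM in the library labelled wild type 2. EedcKO 1 lay above the library labelled wild type 2, so the groups overlapped (log2 fold change -0.71, SE 0.28, adjusted p = 0.257 with edgeR). Scn2a, the other main alpha subunit of early neurons, had 23.8, 20.2 and 18.4 CPM in EedcKO, against 40.8 and 25.4 CPM in the WT (log2 fold change -0.67, SE 0.22, adjusted p = 0.172 with edgeR). Its groups did not overlap. Without the library labelled wild type 2 both passed, Scn3a at -1.09 (edgeR adjusted p = 0.00811) and Scn2a at -0.96 (edgeR adjusted p = 0.0177). Without WT 1 they were at -0.19 and -0.30 (edgeR adjusted p = 0.599 and 0.411). Scn8a, the channel of mature axon initial segments and nodes, had 130, 121 and 107 CPM in EedcKO, against 140.5 CPM in WT 1 and 70.8 CPM in the library labelled wild type 2. Its EedcKO values lay between those of the WT libraries (log2 fold change 0.18, SE 0.26, adjusted p = 0.804 with edgeR). The fold change of Scn8a turned with the WT library used: 0.74 without WT 1 (edgeR adjusted p = 0.0183) and -0.23 without the library labelled wild type 2 (edgeR adjusted p = 0.367).

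Scn3a and Scn8a had different shares of the alpha family's RNA in the groups. On the length-scaled TPM, Scn8a (36.8 ± 3.76) and Scn3a (29.8 ± 5.68) in EedcKO (SD, n = 3) were at levels about their spread apart. In the WT, Scn3a (48.1 ± 20.9) and Scn8a (32.2 ± 14.8) (SD, n = 2) were within their spread. Scn3a made up 29.0%, 27.8% and 21.6% of the family's summed TPM in EedcKO, against 40.0% and 35.5% in the WT. Scn8a made up 33.1%, 34.4% and 29.6% in EedcKO, against 27.2% and 23.2% in the WT. The ratio of Scn8a to Scn3a in TPM was 1.14, 1.24 and 1.37 in EedcKO, against 0.679 and 0.652 in the WT. That ratio differed little between the WT libraries although each gene differed there, and it was chosen after the values were seen, so no test is given. The family summed to 122, 108 and 111 TPM in EedcKO, against 157 and 93.9 TPM in the WT, groups that overlapped.

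**Figure D3:**
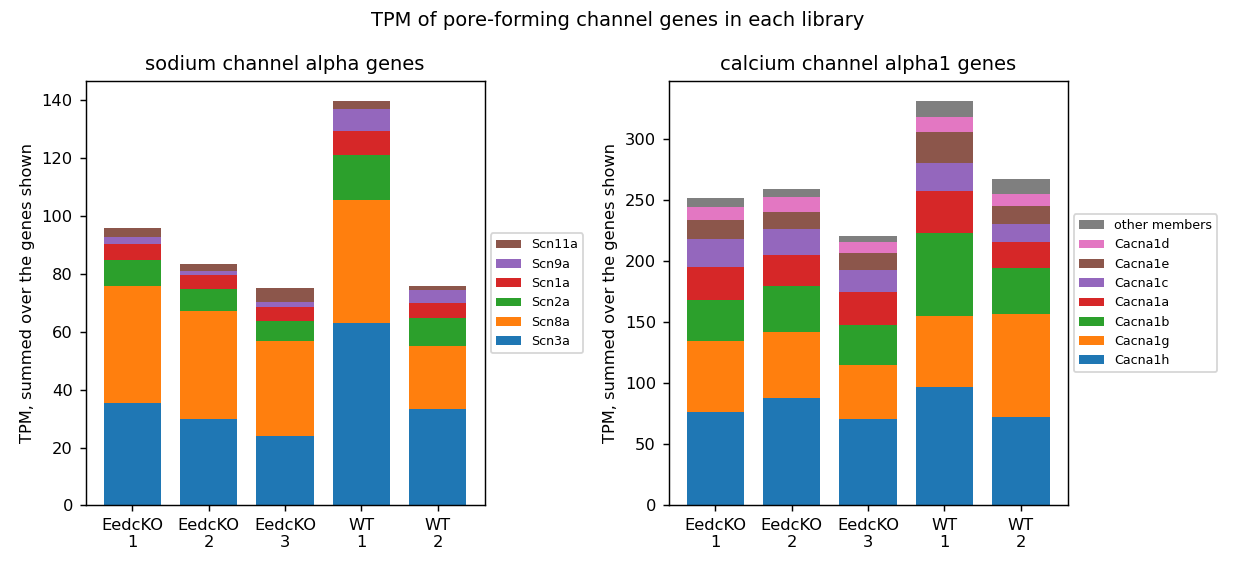
TPM (y axis, from 0) of 6 sodium channel alpha genes (left) and of the calcium channel alpha1 genes (right), stacked per library, where other members on the right are Cacna1i, Cacna1f and Cacna1s. WT 2 is the library labelled wild type 2. The Scn3a layer is the thickest of the alpha layers in both WT bars, and the alpha1 bar of WT 1 is the tallest (331 TPM).

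On chromosome 2 (65457118 to 66784914, mm10) Scn3a, Scn2a, Scn1a, Scn9a and Scn7a, all sodium channel alpha genes, lie in this order. All 4 tested channel genes of the block had negative log2 fold changes (-0.71, -0.67, -0.45 and -1.71), of which the last passed. Scn1a, a main channel of inhibitory interneurons later in life, had 61, 52 and 52 counts in EedcKO, against 91 and 59 in the WT, and its groups overlapped (edgeR adjusted p = 0.426). Of the other tested genes between them, Csrnp3 was at -0.48 (edgeR adjusted p = 0.264) and Ttc21b at -0.17 (edgeR adjusted p = 0.635). Between 4.03% and 6.49% of the 50-base words in the transcripts of Scn1a, Scn2a, Scn3a and Scn9a also occurred in another channel gene here, so a small part of their reads could have been placed on a paralog. Elsewhere in the genome, Scn11a, a channel of pain-sensing neurons, had 19, 14 and 28 counts in EedcKO, against 15 and 9 in the WT, so its groups overlapped (log2 fold change 0.75, SE 0.45, adjusted p = 0.473 with edgeR).

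Of the 3 tested sodium channel beta genes 1 fell, Scn3b, and none rose. Scn3b, the beta subunit of the early brain, had 86.2, 86.5 and 80.0 CPM in EedcKO, against 151 and 144 CPM in the WT. It was the channel gene with the smallest p, and its WT values differed little between the libraries. Its log2 fold change was -0.81 (SE 0.08, adjusted p = 0.00827 with edgeR), -0.83 without the library labelled wild type 2 (edgeR adjusted p = 0.00339) and -0.77 without EedcKO 3 (edgeR adjusted p = 0.0782). Between the female libraries alone it was -0.77 (edgeR adjusted p = 0.634). In TPM Scn3b was the most abundant sodium channel subunit in both groups, with 74.8 ± 3.75 in EedcKO (SD, n = 3) and 130 ± 3.32 in the WT (SD, n = 2). Scn2b, which binds brain alpha subunits covalently, had 13.5, 13.2 and 11.1 CPM in EedcKO, against 21.0 and 17.6 CPM in the WT (log2 fold change -0.62, SE 0.19, adjusted p = 0.143 with edgeR). Its groups did not overlap.

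**Figure D4:**
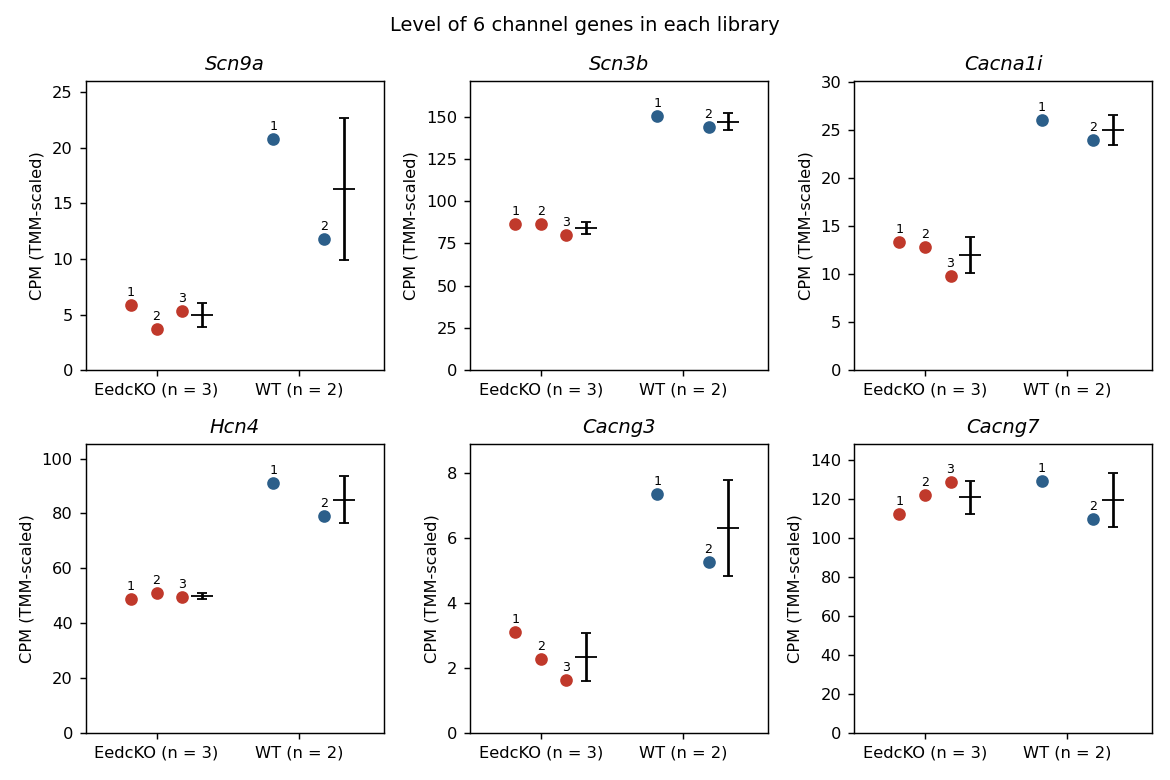
CPM (y axis, from 0) of 6 channel genes in each library, numbered by replicate, with the mean and SD of each group beside the points. EedcKO points lie below both WT points for Scn9a, Scn3b, Cacna1i, Hcn4 and Cacng3, and the groups overlap for Cacng7. Cacng3 and Cacng7 did not pass the test, and WT 2 is the library labelled wild type 2.

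Of the 8 tested calcium channel alpha1 genes 1 fell, Cacna1i, and none rose. Cacna1i encodes a T-type channel, which opens near rest and is known from the thalamic reticular nucleus. It had 64, 62 and 48 counts in EedcKO, against 124 and 118 in the WT, or 13.3, 12.8 and 9.82 CPM against 26.1 and 23.9 CPM. Both WT libraries were close to each other and above every EedcKO library. The log2 fold change was -1.06 (SE 0.19, adjusted p = 0.0316 with edgeR), or -1.11 without the library labelled wild type 2 (edgeR adjusted p = 0.0235). Leaving out EedcKO 1, 2 or 3 gave edgeR adjusted p = 0.0697, 0.105 and 0.144, and the fold change between the female libraries alone was -0.90 (edgeR adjusted p = 0.746). The other T-type genes were far more abundant in TPM and did not pass. Cacna1g had 121, 114 and 92.5 CPM in EedcKO, against 123 and 177 CPM in the WT (log2 fold change -0.46, SE 0.17, adjusted p = 0.222 with edgeR). Without WT 1 it passed at -0.72 (edgeR adjusted p = 0.0213), and without the library labelled wild type 2 it was at -0.17 (edgeR adjusted p = 0.610). Cacna1h, the most abundant alpha1 gene, had 152, 178 and 144 CPM in EedcKO, against 198 and 146 CPM in the WT, and its groups overlapped (log2 fold change -0.12, SE 0.15, adjusted p = 0.752 with edgeR).

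The alpha1 genes of the P/Q, N and R types, which drive transmitter release at nerve endings, all had negative values with every library, and none passed. The N-type gene Cacna1b had 68.7, 77.2 and 67.9 CPM in EedcKO, against 141 CPM in WT 1 and 76.9 CPM in the library labelled wild type 2. Its groups overlapped by 1 library, and its log2 fold change of -0.61 (SE 0.23, adjusted p = 0.235 with edgeR) was -0.98 without the library labelled wild type 2 (edgeR adjusted p = 0.00275) and -0.13 without WT 1 (edgeR adjusted p = 0.606). The R-type gene Cacna1e was at -0.47 and the P/Q-type gene Cacna1a at -0.08 (edgeR adjusted p = 0.340 and 0.893), and Cacna1a was at 0.32 without WT 1. The tested L-type genes, which couple depolarization to gene expression in neurons, were at 0.14 for Cacna1c and -0.11 for Cacna1d (edgeR adjusted p = 0.775 and 0.821). Both had overlapping groups. The family summed to 252, 260 and 221 TPM in EedcKO, against 331 and 268 TPM in the WT.

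None of the 4 calcium channel beta genes passed with edgeR, DESeq2 or limma-voom. At an unadjusted p under 0.05 edgeR had 2 lower, DESeq2 1 and limma-voom 2, with none higher. The shares of all genes lower were 9.51%, 5.8% and 9.4%. Without WT 1 edgeR had 0 of the 4 lower at that p, against 12.2% of all genes. Cacnb3, the most abundant, had 165, 184 and 181 CPM in EedcKO, against 215 and 199 CPM in the WT (log2 fold change -0.23, SE 0.09, adjusted p = 0.257 with edgeR). Cacnb1 had 65.2, 74.3 and 77.7 CPM in EedcKO, against 98.0 and 85.8 CPM in the WT (log2 fold change -0.34, SE 0.11, adjusted p = 0.162 with edgeR). In both genes every EedcKO library lay below both WT libraries, as in 17.4% of all tested genes. The same held for Cacnb2, narrowly, with 17.18 CPM in EedcKO 3 against 17.24 CPM in the library labelled wild type 2. Cacnb1 also serves the skeletal muscle channel, and the 15 striated muscle markers summed to 15.6, 9.91 and 13.3 CPM in EedcKO, against 12.2 CPM in WT 1 and 96.1 CPM in the library labelled wild type 2. The part of that list in the Cacnb1 values was not tested. Cacnb4 and Cacnb2 were at -0.31 and -0.12 (edgeR adjusted p = 0.604 and 0.792).

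The type I TARP genes, Cacng2, Cacng3, Cacng4 and Cacng8, all lay lower in every EedcKO library than in both WT libraries, and none passed the test. Of all tested genes 17.4% lay lower in this way. Cacng3 had 15, 11 and 8 counts in EedcKO, against 35 and 26 in the WT, or 3.12, 2.27 and 1.64 CPM against 7.36 and 5.27 CPM. Its log2 fold change was -1.42 (SE 0.39, adjusted p = 0.101 with edgeR), and -1.63 without the library labelled wild type 2 (edgeR adjusted p = 0.0694). Cacng2, also called stargazin, had 27.5, 33.4 and 28.8 CPM in EedcKO, against 57.6 and 36.7 CPM in the WT (log2 fold change -0.65, SE 0.20, adjusted p = 0.139 with edgeR). Without the library labelled wild type 2 it passed at -0.94 (edgeR adjusted p = 0.0106), and without WT 1 it was at -0.31 (edgeR adjusted p = 0.312). Its size thus rested on which WT library was used. Cacng8 had 21.7, 22.9 and 24.8 CPM in EedcKO, against 35.97 and 28.4 CPM in the WT (log2 fold change -0.48, SE 0.15, adjusted p = 0.161 with edgeR). Cacng4, the most abundant of the gamma genes in TPM, had 176, 182 and 202 CPM in EedcKO, against 222 and 230.2 CPM in the WT (log2 fold change -0.28, SE 0.09, adjusted p = 0.181 with edgeR). All 4 were lower at an unadjusted p under 0.05 with edgeR, DESeq2 and limma-voom, against 9.51%, 5.8% and 9.4% of all genes. These tools were run on the same libraries. Without WT 1 edgeR had 2 of the 4 lower at that p, against 12.2% of all genes. Of the type II TARPs, Cacng7 had 112, 122 and 129 CPM in EedcKO, against 129 and 109 CPM in the WT, and its groups overlapped (log2 fold change 0.02, SE 0.11, adjusted p = 0.958 with edgeR). Cacng7 lies beside Cacng8 on chromosome 7 (3332955 to 3435667 for the block with Cacng6). Cacng5 had 8, 14 and 13 counts in EedcKO, against 12 and 21 in the WT (log2 fold change -0.49, edgeR adjusted p = 0.651).

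Of the 4 tested HCN genes 1 fell, Hcn4, and none rose. Hcn4, the main pacemaker channel of the heart and also a channel of the thalamus, had 235, 247 and 242 counts in EedcKO, against 433 and 389 in the WT. As CPM these were 49.0, 51.0 and 49.5 in EedcKO, against 91.1 and 78.9 in the WT. The EedcKO libraries lay close to each other and below both WT libraries. The log2 fold change was -0.77 (SE 0.10, adjusted p = 0.0125 with edgeR), or -0.86 without the library labelled wild type 2 (edgeR adjusted p = 0.00416) and -0.68 without WT 1 (edgeR adjusted p = 0.0161). Leaving out EedcKO 2 or 3 gave edgeR adjusted p = 0.0627 and 0.107, and between the female libraries alone the fold change was -0.79 (edgeR adjusted p = 0.643). The 7 heart muscle markers summed to 14.8, 11.4 and 19.8 CPM in EedcKO, against 17.2 CPM in WT 1 and 34.3 CPM in the library labelled wild type 2. The heart factor Nkx2-5 had 0, 2 and 1 counts in EedcKO, against 0 and 2 in the WT. One gene of that list, Myh7, fell, with 13, 12 and 9 counts in EedcKO, against 34 and 61 in the WT (log2 fold change -2.05, adjusted p = 0.0316 with edgeR). The other tested genes of that list, Myh6, Tnni3 and Tnnt2, had overlapping groups and did not pass. They were at -0.008, -0.39 and -1.33 (edgeR adjusted p = 0.996, 0.739 and 0.357). The part of that list in the Hcn4 values was not tested. In TPM Hcn4 (39.5 ± 0.759) and Hcn3 (43.3 ± 3.77) were at levels that differed by about their spread in EedcKO (SD, n = 3), whereas the WT had 66.9 ± 6.31 for Hcn4 and 51.7 ± 14.2 for Hcn3 (SD, n = 2). Hcn3 had 33.1, 38.6 and 39.7 CPM in EedcKO, against 53.4 and 35.7 CPM in the WT (log2 fold change -0.26, SE 0.18, adjusted p = 0.546 with edgeR), and it was at 0.04 without WT 1. Hcn2 was at 0.07 (edgeR adjusted p = 0.935).

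Genes silenced by Polycomb repressive complex 2 often have starts rich in CpG dinucleotides, so the promoter windows of the called genes are shown. The called genes were lower, not higher, in EedcKO. Histone methylation at them was not measured here, so whether the complex acts on them was not tested. The windows run from 250 bases before to 50 after a RefSeq start (GRCm38.p6, the assembly of mm10), and 29 of the 40 genes had one. Scn3b had none in that table. The windows below are at chr2:66634913-66635212 on the minus strand for Scn9a, chr15:80286988-80287287 on the plus strand for Cacna1i and chr9:58822699-58822998 on the plus strand for Hcn4. The window of Cacng7, at chr7:3332575-3332874 on the plus strand, is given as an abundant gene with equal levels in both groups. Each reads 5′ to 3′, with CpG dinucleotides in capitals.
Scn9a: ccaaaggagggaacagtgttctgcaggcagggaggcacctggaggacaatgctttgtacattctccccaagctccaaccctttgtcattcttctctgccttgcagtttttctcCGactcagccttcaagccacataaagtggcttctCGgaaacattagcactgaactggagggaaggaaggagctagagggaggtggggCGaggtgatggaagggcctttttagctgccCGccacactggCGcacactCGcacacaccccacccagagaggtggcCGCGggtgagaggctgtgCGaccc
Cacna1i: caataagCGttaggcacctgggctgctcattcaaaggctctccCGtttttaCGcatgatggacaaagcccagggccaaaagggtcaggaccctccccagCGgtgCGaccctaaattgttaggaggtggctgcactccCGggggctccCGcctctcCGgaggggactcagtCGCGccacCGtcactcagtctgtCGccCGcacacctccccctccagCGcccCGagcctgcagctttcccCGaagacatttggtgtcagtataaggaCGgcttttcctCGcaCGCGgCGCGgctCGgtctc
Hcn4: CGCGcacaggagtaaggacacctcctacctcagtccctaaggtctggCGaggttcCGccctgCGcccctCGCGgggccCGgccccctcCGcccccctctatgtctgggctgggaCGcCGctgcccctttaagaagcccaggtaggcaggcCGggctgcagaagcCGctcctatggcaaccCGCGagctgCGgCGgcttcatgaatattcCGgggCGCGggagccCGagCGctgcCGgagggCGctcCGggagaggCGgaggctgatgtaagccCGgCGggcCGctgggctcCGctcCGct
Cacng7: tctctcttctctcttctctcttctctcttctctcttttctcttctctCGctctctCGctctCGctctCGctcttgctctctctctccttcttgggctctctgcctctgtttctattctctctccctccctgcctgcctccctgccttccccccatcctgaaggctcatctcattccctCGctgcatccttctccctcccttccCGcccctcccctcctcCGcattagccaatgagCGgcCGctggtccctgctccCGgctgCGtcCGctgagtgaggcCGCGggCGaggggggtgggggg
The windows held 9 CpG in Scn9a, 23 in Cacna1i, 31 in Hcn4 and 15 in Cacng7. A window was counted as CpG-rich when its GC content was at least 50% and its ratio of observed to expected CpG at least 0.6. Cacna1i (ratio 0.794), Hcn4 (0.805) and Cacng7 (0.618) met this, and Scn9a (0.366) did not, so the called genes did not share it. Of the tested channel genes with a window 11 of 22 were CpG-rich, against 34.1% of 27025 windows, 1 for each gene in the table. The E-box CANNTG, read on both strands, was in 16 of these 22 windows and in 72.15% of all windows. The homeodomain motif TAATTA, also read on both strands, was in 0 of the 22 and in 5.31% of all windows. The set of all windows also holds genes with too few counts to test, so these shares do not compare like genes.

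The 8 genes with too few counts to test included channels of muscle, retina and peripheral nerve. Over the 3 EedcKO and 2 WT libraries, Scn4a, the skeletal muscle sodium channel, had 2 and 2 counts, Scn7a 1 and 1, and Scn10a, a channel of pain-sensing neurons, 5 and 6. Scn10a had 3, 0 and 2 counts in EedcKO, against 5 and 1 in the WT. The beta subunit Scn4b had 6, 6 and 3 counts in EedcKO, against 7 and 11 in the WT. The retinal L-type gene Cacna1f had 5 counts over EedcKO and 0 over the WT, a difference not detectable at this depth, since a count of 0 allows up to 3 counts. The muscle L-type gene Cacna1s had 3, 4 and 0 counts in EedcKO, against 1 and 5 in the WT. Its muscle partner Cacng1 had 5 counts over EedcKO and 2 over the WT, and Cacng6 had 6, 3 and 4 in EedcKO, against 3 and 6 in the WT. The retina markers summed to 43.3, 41.3 and 18.6 CPM in EedcKO, against 70.0 and 112 CPM in the WT, and the photoreceptor genes Crx and Rcvrn had at most 1 count in any library.

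Genes that work with these channels were listed as well: alpha2delta subunits, fibroblast growth factor homologous factors, anchoring proteins, channel regulators and the NALCN leak channel. Of 27 tested 4 fell and 1 rose, against 2.17% and 1.04% of all tested genes. The alpha2delta subunits, which bring calcium channels to the membrane, moved unequally. Cacna2d3 had 72, 77 and 64 counts in EedcKO, against 199 and 226 in the WT (log2 fold change -1.58, SE 0.14, adjusted p = 0.00587 with edgeR). Cacna2d2 had 98.1, 100.3 and 90.6 CPM in EedcKO, against 163 and 143 CPM in the WT (-0.67, SE 0.10, adjusted p = 0.0166 with edgeR). Cacna2d1 had 191, 236 and 173 CPM in EedcKO, against 132 and 101 CPM in the WT, short of the threshold (0.78, SE 0.17, adjusted p = 0.0532 with edgeR), and is named after its value was seen. Rem2, a small GTPase that inhibits calcium channels, fell, with 77, 75 and 78 counts in EedcKO, against 174 and 137 in the WT (-1.02, SE 0.17, adjusted p = 0.0247 with edgeR). Nalcn, the sodium leak channel that sets resting potential, fell too, with 132, 83 and 82 counts in EedcKO, against 257 and 202 in the WT (-1.21, SE 0.24, adjusted p = 0.0396 with edgeR). Cabp1, a calcium sensor that binds calcium channels, rose, with 58.7, 87.7 and 65.9 CPM in EedcKO, against 21.7 and 26.0 CPM in the WT (1.57, SE 0.20, adjusted p = 0.0118 with edgeR). Without EedcKO 3 no gene in the whole table passed, these 5 included. Cacna2d2, Rem2 and Nalcn did not pass without EedcKO 2, Rem2 not without EedcKO 1 and Nalcn not without WT 1 (edgeR adjusted p between 0.0532 and 0.134). Of this list 12 were lower and 1 higher without the library labelled wild type 2, and 3 lower and 4 higher without WT 1, fits in which the calls over all genes numbered 882 and 1012.

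REST is a repressor that keeps neuronal genes, sodium channel genes among them, silent outside neurons. None of 8 genes of REST and its cofactors passed with edgeR, DESeq2 or limma-voom. All 8 had positive log2 fold changes, at most 0.24, and 2 were negative without the library labelled wild type 2. In 5 of the 8 every EedcKO library lay above both WT libraries, against 16.4% of all tested genes. At an unadjusted p under 0.05 edgeR and limma-voom each had 1 of the 8 higher and DESeq2 none. The shares of all genes higher were 7.7% with edgeR, 7.67% with limma-voom and 4.26% with DESeq2. Rest had 57.7, 59.2 and 55.4 CPM in EedcKO, against 54.7 and 51.5 CPM in the WT (log2 fold change 0.11, SE 0.10, adjusted p = 0.634 with edgeR). The cofactors Rcor1 and Rcor2 were at 0.24 and 0.23 (edgeR adjusted p = 0.271 and 0.306).

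Summed markers of several neuron types also lay apart between the groups. The 13 markers of ventral GABAergic neurons summed to 1281, 853 and 851 CPM in EedcKO, against 2196 and 1643 CPM in the WT. The 9 Cajal-Retzius markers summed to 567, 576 and 575 CPM in EedcKO, against 706 and 758 CPM in the WT. The 14 genes of the hypothalamus and other diencephalon summed to 174, 211 and 158 CPM in EedcKO, against 399 and 382 CPM in the WT. All 3 lists lay lower in every EedcKO library, as the 4 called genes did, and so did the pan-neuronal list and the retina list given above. Within the diencephalic list Otp had 0, 1 and 1 counts in EedcKO, against 428 and 85 in the WT, and Nr5a1 was at 0 in every library. The 12 cortical excitatory markers summed to 1755, 2185.5 and 2071 CPM in EedcKO, against 1379 and 1244 CPM in the WT, and the 9 radial glia markers to 1819, 1795 and 1882 CPM, against 1649 and 1583 CPM. These lay higher in every EedcKO library. Of single tested genes, 17.4% lay below both WT libraries in every EedcKO library and 16.4% above them. The 17 pan-neuronal markers summed to 3670, 3820 and 3582 CPM in EedcKO, against 4705 CPM in WT 1 and 3914 CPM in the library labelled wild type 2, groups that did not overlap. The gap between the WT libraries in that list ran the same way as in Scn3a, Scn8a and Cacna1b. It did not do so in every channel gene: Cacna1g had 123 CPM in WT 1 and 177 CPM in the library labelled wild type 2, and Cacng4 222 and 230 CPM. The 11 markers of cortical hem and choroid plexus summed to 151, 233 and 43.4 CPM in EedcKO, against 161 CPM in WT 1 and 584 CPM in the library labelled wild type 2. All genes of the GABAergic, Cajal-Retzius, cortical, radial glia and pan-neuronal lists were detected in every library, as were 11 to 13 of the 14 diencephalic genes. The part of these lists in the channel gene values was not tested.

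The files do not say whether counting used strand, so reads of overlapping genes on the opposite strand may be included. Exons of Scn3b, Cacna1i and Hcn4 overlapped no other annotated gene, and 1.41% of the exonic bases of Scn9a did. Of the other genes with values above, the overlap was 20% for Cacna1s, which was not tested, 17.1% for Hcn3 (with Pklr) and 16.0% for Cacnb4. The overlap was at most 5.86% with any 1 gene for the rest of the tested genes.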

How the data were processed

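Polyadenylated forebrain RNA of 3 EedcKO and 2 WT samples, grouped by their titles, was sequenced on libraries made by the BGISEQ-500 procedure, per the labels' protocols. HISAT2 2.2.0 and the build mm10 are named in the submitters' processing notes. No source used here names the counting tool, its use of strand or the annotation. The files deposited by the authors hold whole-number counts per gene, not normalized (56196 rows), and TPM (24926 rows). For 11960 genes with at least 20 counts in every library, the ratio of count to TPM had the same proportions in all libraries within 0.1%, so the deposited TPM are the same counts over 1 length per gene.

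Rows without a symbol (28277 rows, 2.01% to 2.16% of counts) were left out of library sizes and tests. The 40 channel symbols matched 43 rows, and the 3 extra rows had no counts. The test was edgeR 4.0.16 in R 4.3.3, on the deposited counts: filterByExpr, TMM, glmQLFit with robust estimation and glmQLFTest on group alone. Each SE was obtained by dividing the log2 fold change by the root of its F value. DESeq2 1.42.0, limma 3.58.1 (voom, and trend on log2 of TPM plus 1 or 0.1), RLE or no scaling, other filters, embryo sex, a replicate block and each library left out were alternatives. Depth limits low counts: 3 counts, the most that a count of 0 allows, are 0.609 to 0.631 CPM. The labels do not say that every sample came from its own embryo. The p-values then reflect only how far these samples vary, which may in part be technical.

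Channel genes, lists and tests were chosen with earlier results of these data known. Values per library are given for the genes past the threshold, those with an unadjusted p under 0.05 and the most abundant pair of each family. The remaining genes are given by their fold changes or counts, and a few are not reported here by name. The diencephalic and the hem and choroid plexus lists were added once the data had been seen, as was the fit restricted to female libraries. Gene positions and exon overlaps are from GENCODE M21, and promoter windows from RefSeq (GRCm38.p6, the first window listed for each gene). The tables held 0 columns of other samples.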

Additional observations from a re-analysis of the deposited data

How the results depend on the processing

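The direction of Scn9a, Scn3b, Cacna1i and Hcn4 held under every alternative run, and their calls did not. The count of lower channel genes, 4, ranged from 0 to 9 when a library was left out, with 0 without EedcKO 3 and 9 without the library labelled wild type 2, and the count of higher ones, 0, from 0 to 1. For the accessory list the counts of 4 lower and 1 higher ranged from 0 to 12 and from 0 to 4. Both channel counts were unchanged with RLE size factors, library size alone, no count filter, a filter of 1 CPM in 2 libraries and robust estimation off. With DESeq2 there was 1 higher. The TPM with a pseudocount of 1, of 0.1, and of 1 with no filter gave 2, 2 and 1 lower channel genes. With embryo sex as a covariate and in the female libraries alone edgeR called 0 of all genes tested, hence 0 lower channel genes, 0 lower accessory genes and 0 higher ones. As no WT embryo was male, both fits compare EedcKO 1 alone with the WT. Accessory genes higher were 2 with RLE size factors, with library size alone, with no count filter and with DESeq2. Lower ones were 7 with library size alone and 2 with a TPM pseudocount of 0.1. With no TPM filter both accessory counts were 0. The cause was not tested.

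Whether the replicate numbers in the titles pair the samples is not known. The deviations from the group means correlated at -0.035 for the libraries numbered 1 and 0.13 for those numbered 2. With 2 WT libraries the deviations of one mirror those of the other, so these values cannot exclude a pairing. With the replicate block edgeR called 0 of all 13989 genes, hence 0 channel genes and 0 lower and 0 higher accessory genes. No WT library is numbered 3, so the block takes EedcKO 3 out of the comparison. Scn3b was at -0.769 with the block and also without EedcKO 3. In the fit with the block, which left 1 residual degree of freedom, 10 channel genes were lower and 1 higher at an unadjusted p under 0.05, against 7.95% and 7.56% of all genes. With the block Cacng7 was at -0.026. Directions turned in 10 tested channel genes under at least 1 alternative, none of them called with all libraries. With 1 library left out at a time, Scn8a ranged from -0.23 to 0.74, Cacna1h from -0.32 to 0.093, Hcn3 from -0.52 to 0.041 and Cacng7 from -0.089 to 0.13 in log2 fold change. The negative Scn8a value was without the library labelled wild type 2, and the positive values of Cacna1h and Hcn3 were without WT 1. Cacng7 was negative without EedcKO 3 (-0.029) or the library labelled wild type 2, with embryo sex as a covariate (-0.092) and in the female libraries alone (-0.088), a fit chosen after seeing the data. Hcn2 was negative in the same fits as Cacng7, from -0.20 to -0.04. Without WT 1, Cacna1a was at 0.32, Cacna1d at 0.01 and Cacnb4 at 0.13, and without the library labelled wild type 2 Cacna1c was at -0.12.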
